A study of Mus musculus with 16 samples.

Results

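The nuclear genes for subunits of respiratory complexes II, III, IV and V and for cytochrome c were described in hearts with and without the long noncoding RNA Cardinal. Genes were taken by symbol, as those named for succinate dehydrogenase, ubiquinol-cytochrome c reductase, cytochrome c, cytochrome c oxidase subunits 4 to 8 and ATP synthase. Symbols marking pseudogenes were left out, as were genes with fewer than 160 counts summed over the 16 libraries. This gave 48 of the 55487 genes in the table. They comprised 4 genes of complex II, 9 of complex III, cytochrome c itself (Cycs), 17 of complex IV and 17 of complex V, spread over 19 chromosomes. Of these, 47 are annotated as protein coding and 1, Cox6c2, as a processed pseudogene. The symbols are those of the annotation used, in which ATP synthase genes carry their older names (Atp5a1, Atp5b, Atp5g1).

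RNA of the heart apex from 16 male mice was sequenced 4 weeks after surgery, with 4 animals in each group. Ctrl animals are labelled wild type, and KO animals carried a deletion of Cardinal (annotated as Gm12295) made with CRISPR/Cas9. Transverse aortic constriction (TAC) loads the left ventricle with pressure by tying the aorta against a needle that is then withdrawn, and sham animals had the same operation without the ligature. Each genotype had a sham and a TAC group, and the age of the animals was not given in the sources used here. Whole tissue was extracted, so each library mixes the RNA of cardiomyocytes with that of all other cells of the apex. A lower level can come from fewer cardiomyocytes or from less RNA of a gene per cell, and in bulk samples these cannot be told apart.

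The respiratory chain passes electrons from fuel to oxygen across the inner mitochondrial membrane, and ATP synthase uses the proton gradient it builds to make ATP. Complex II is also an enzyme of the citric acid cycle and is encoded by nuclear genes alone, whereas complexes III, IV and V join nuclear subunits with others translated inside the mitochondrion. The beating heart depends on this machinery for nearly all of its ATP, and several complex IV subunits have a form made mainly in heart and skeletal muscle beside a form made in most tissues.

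Library totals ranged from 53169437 to 79404714 counts. Together the 48 made up 2.76% to 2.94% of all counts in sham and 2.36% to 2.61% in TAC libraries. All 48 passed the filter on low counts, and 13 share exon bases with other annotated genes, whose reads cannot be told apart where the counting did not use strand. Levels are given as CPM (read counts scaled to a common library size, with TMM factors), and a gene was called when its adjusted p in the edgeR quasi-likelihood test was under 0.05. The deleted Cardinal was at 3.25 to 3.86 CPM in Ctrl sham, 2.69 to 8.03 CPM in Ctrl TAC and 0.297 to 0.553 CPM in KO sham. KO TAC 1, 2 and 3 had 0.276 to 0.371 CPM, but the library labelled KO TAC 4 had 4.55 CPM, which goes against its label. Ctrl TAC 2 stood apart on the second principal component, at -62.6 against -3.40 to 13.8 for the other libraries. Ctrl TAC 2, 3 and 4 and KO TAC 4 carry animal numbers starting with 25, taken here as another series than the remaining animals. What the series stands for was not given in the sources used here. Without KO TAC 4 the KO comparison of TAC with sham holds no animal of the 25 series. Even so, KO sham 1, 2 and 3 carry numbers starting with 33, and no KO TAC animal does. A model term for such numbers took the calls over all genes after TAC in KO hearts from 6271 to 4831. The comparisons that use Ctrl TAC rest within a series on Ctrl TAC 1 or KO TAC 4 alone, so there the series and the groups can barely be told apart. Results are given without these libraries, and with the number series in the model, where these change a count or the call of a gene described in full.

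RefSeq promoter windows (GRCm38.p6, 250 bases before to 50 after the start) were matched for 34 of the 48 genes. Both strands were searched for 5 short motifs. The motif of nuclear respiratory factor NRF1, GCATGCGC, which can match both strands at overlapping bases, was held by 8 of the 34 promoters (23.5%) and by 3.0% of the promoters of all 27025 genes. The ETS motif read by GABP, CCGGAAG, was held by 12 of 34 (35.3%), against 9.9% of all genes. The motif of the estrogen-related receptors (ERR), AAGGTCA, was held by 5 of 34 (14.7%, against 5.4%), and the YY1 motif AAGATGGC by 2 of 34 (5.9%, against 3.2%). The MEF2 motif CTAAAAATA was in none of the 34, against 0.6% of all genes. Matches are descriptions of the letters and not evidence of binding.
Shown are 2 of the 5 genes called lower in KO TAC than in Ctrl TAC hearts, both with an NRF1 motif (Sdhb and Uqcrc1). Also shown are cytochrome c, the gene that rose after TAC in Ctrl hearts (Cox6a1), and a subunit c gene of ATP synthase that holds the ERR motif (Atp5g3). Capitals mark the motifs, and overlapping matches run together.
Sdhb (chr4:140961021-140961320, plus strand): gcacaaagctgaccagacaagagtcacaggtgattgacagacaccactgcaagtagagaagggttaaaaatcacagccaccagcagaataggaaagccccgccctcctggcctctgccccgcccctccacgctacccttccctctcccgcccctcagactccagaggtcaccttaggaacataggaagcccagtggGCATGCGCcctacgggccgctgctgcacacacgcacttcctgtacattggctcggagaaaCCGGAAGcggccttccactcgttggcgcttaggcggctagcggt
Uqcrc1 (chr9:108936398-108936697, plus strand): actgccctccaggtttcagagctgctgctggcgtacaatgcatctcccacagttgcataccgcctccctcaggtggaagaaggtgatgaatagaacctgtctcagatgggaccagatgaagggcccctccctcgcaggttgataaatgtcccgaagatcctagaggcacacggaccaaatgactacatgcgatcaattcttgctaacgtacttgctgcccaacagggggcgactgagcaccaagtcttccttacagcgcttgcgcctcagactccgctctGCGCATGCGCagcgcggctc
Cycs (chr6:50566520-50566819, minus strand): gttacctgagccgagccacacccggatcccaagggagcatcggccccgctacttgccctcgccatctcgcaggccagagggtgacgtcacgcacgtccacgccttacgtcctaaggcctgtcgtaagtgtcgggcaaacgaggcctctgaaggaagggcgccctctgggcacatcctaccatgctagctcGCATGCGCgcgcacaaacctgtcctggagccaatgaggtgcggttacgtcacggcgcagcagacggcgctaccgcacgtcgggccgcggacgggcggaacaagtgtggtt
Cox6a1 (chr5:115348909-115349208, minus strand): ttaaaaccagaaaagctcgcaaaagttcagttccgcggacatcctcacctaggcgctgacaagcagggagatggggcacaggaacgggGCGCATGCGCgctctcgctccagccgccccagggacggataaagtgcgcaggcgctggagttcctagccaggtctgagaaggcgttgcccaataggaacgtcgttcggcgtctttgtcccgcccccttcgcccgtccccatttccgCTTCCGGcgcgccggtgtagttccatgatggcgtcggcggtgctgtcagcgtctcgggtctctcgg
Atp5g3 (chr2:73911277-73911576, minus strand): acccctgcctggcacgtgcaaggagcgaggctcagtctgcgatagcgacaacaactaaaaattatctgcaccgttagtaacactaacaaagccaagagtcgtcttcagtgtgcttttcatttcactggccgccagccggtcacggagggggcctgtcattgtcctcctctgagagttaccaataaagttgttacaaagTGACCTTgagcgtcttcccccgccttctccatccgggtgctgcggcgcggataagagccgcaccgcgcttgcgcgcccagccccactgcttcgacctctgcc
The Sdhb window holds an NRF1 motif 54 bases before the start and an ETS motif 6 bases after it. In Uqcrc1 the NRF1 motif lies 30 bases after the start on the opposite strand and 32 bases after it on the gene's own. Cycs holds an NRF1 motif 60 bases before its start. Cox6a1 holds NRF1 motifs on both strands, 162 and 160 bases before the start, and an ETS motif 16 bases before it. Atp5g3 holds an ERR motif 52 bases before its start, on the opposite strand. Among the other genes called lower in KO TAC, the windows of Sdha and Atp5g1 held none of the 5 motifs. An Atp5j window held an ETS and a YY1 motif, and its other window none. The promoters of Cox7a1 and Cox8b, muscle forms of complex IV subunits, held none of the 5 motifs.

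In unloaded control hearts these genes differed in level by orders of magnitude. Per kilobase of annotated exon, Atp5a1, the alpha subunit of the catalytic head of ATP synthase, was the highest, at 1248 ± 82.2 CPM per kilobase (SD, n = 4). Cox6a2, the muscle form of complex IV subunit 6A, followed at 1152 ± 59.9, and Atp5b, the catalytic beta subunit, at 1074 ± 64.8. The libraries of these neighbours overlapped, at 1190 to 1367 for Atp5a1, 1063 to 1194 for Cox6a2 and 1004 to 1156 for Atp5b. Cox8b, Cox7a1 and Cox4i1 came next, at 862 ± 66.7, 823 ± 62.1 and 814 ± 54.4, and their libraries overlapped too. Muscle forms stood above their ubiquitous partners, with Cox6a1 at 81.8 ± 1.12, Cox7a2 at 225 ± 16.5 and Cox8a at 117 ± 2.53. At the low end were Atp5s (10.5 ± 0.512), Cox4i2 (6.58 ± 0.710), Cox6c2 (2.77 ± 0.831) and Cox6b2 (1.25 ± 0.128 CPM per kilobase).

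Pressure overload lowered most of these genes in Ctrl hearts. Of the 48, 27 fell, 1 rose and 20 were not called, against 20.0% of all 18275 genes tested called in either direction and 9.6% called lower. The median log2 fold change was -0.19, against 0.00 over all genes. The summed level fell from 29730 ± 1815 to 25080 ± 1188 CPM (SD, n = 4), a change of -15.7%. Per library the sum was 32010, 28790, 27860 and 30270 CPM in Ctrl sham and 25290, 24360, 26670 and 24010 CPM in Ctrl TAC hearts, without overlap. The count called in either direction fell to 21 without Ctrl TAC 2 or without Ctrl TAC 2 and KO TAC 4 together. It fell to 17 without Ctrl sham 1, to 18 without Ctrl TAC 4 and to 13 with a model term for the series of animal numbers. Over all genes these fits called 3551, 3425, 2694, 2753 and 2479, in that order, against 3652 with all libraries and no such term.

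In KO hearts the response had the same direction and reached more genes. Of the 48, 37 fell, none rose and 11 were not called, against 34.3% of all genes called and 16.5% called lower. The median log2 fold change was -0.35. The summed level fell from 30090 ± 317 to 22870 ± 935 CPM, a change of -24.0%, with 30110, 29640, 30370 and 30230 CPM in KO sham and 22590, 24190, 22000 and 22690 CPM in KO TAC hearts. The library labelled KO TAC 4 lay within the range of the other KO TAC libraries, and the count was 37 without it, beside 5740 of all 18494 genes then tested. Of the genes that fell, 26 fell in both genotypes, 11 in KO hearts alone and 1 (Cox6b2) in Ctrl hearts alone. Whether the genotypes differed in these responses was tested by the interaction of genotype and surgery, which called none of the 48.

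**Figure D1:**
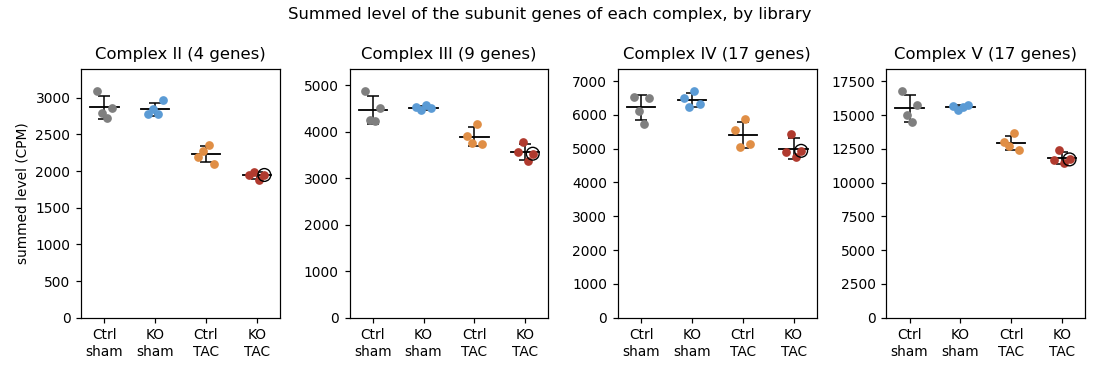
Summed level in CPM (vertical axes, from 0) of the subunit genes of complexes II, III, IV and V in each of the 16 libraries, with the mean and SD of each group of 4. The ring marks the library labelled KO TAC 4. In each panel the sham groups lie together, Ctrl TAC lies lower and KO TAC lowest by its mean, with complex II falling from 2868 to 2235 CPM in Ctrl and from 2842 to 1941 CPM in KO hearts.

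These counts depend on how libraries were scaled. Mitochondrially encoded genes for proteins made up 25.5% to 27.5% of all counts in sham and 21.05% to 25.8% in TAC libraries, and their part in the scaling was not tested. Scaled by library totals alone, the median of all genes shifted to 0.11 after TAC in Ctrl and 0.16 in KO hearts, and the calls over all genes went from 1898 higher and 1754 lower to 3400 higher and 935 lower in Ctrl, and from 3253 and 3018 to 5922 and 1468 in KO. Under that scaling 13 of the 48 fell and 1 rose in Ctrl, and 30 fell and 3 rose in KO hearts (Cox6a1, Cox7a2l and Cox8a). Relative to the median of all genes, the median of the 48 was -0.20 and -0.34, as with TMM scaling (-0.19 and -0.34). No gene called with TMM scaling changed direction.

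Of the complexes, the summed level of complex II changed most. Its 4 genes summed to 3090, 2797, 2721 and 2863 CPM in Ctrl sham and 2197, 2279, 2362 and 2101 CPM in Ctrl TAC hearts, a change of -22.1%, and the change in KO hearts was -31.7%. In Ctrl hearts 3 of 4 fell and in KO hearts 4 of 4. Sdha, the flavoprotein subunit that oxidises succinate, had 1608, 1456, 1419 and 1494 CPM in Ctrl sham and 1074, 1174, 1132 and 1011 CPM in Ctrl TAC hearts. It had 1427, 1457, 1400 and 1547 CPM in KO sham and 898, 905, 886 and 914 CPM in KO TAC hearts. The TAC libraries of each genotype lay below all its sham libraries, and the KO TAC libraries lay below all Ctrl TAC libraries. Its log2 fold change after TAC was -0.44 ± 0.05 (SE) in Ctrl (adjusted p = 1.45e-05, edgeR) and -0.70 ± 0.05 in KO hearts (adjusted p = 3.47e-08).

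The other complex II genes fell by unequal amounts. Sdhb, the iron-sulfur subunit, had 708, 682, 634 and 692 CPM in Ctrl sham and 585, 592, 613 and 552 CPM in Ctrl TAC hearts, and 663, 691, 704 and 708 CPM in KO sham and 493, 535, 497 and 497 CPM in KO TAC hearts. Neither pair of groups overlapped, and it changed by -0.21 ± 0.05 log2 in Ctrl and -0.45 ± 0.05 in KO hearts (adjusted p = 0.00413 and 1.32e-06). The call in Ctrl hearts was lost with the number series in the model (adjusted p = 0.0515) and with library totals (0.117). Sdhc, which anchors the enzyme in the membrane, had 427, 364, 367 and 375 CPM in Ctrl sham and 266, 238, 311 and 267 CPM in Ctrl TAC hearts, with no overlap. Its log2 fold changes of -0.50 ± 0.07 and -0.54 ± 0.07 were close in the 2 genotypes (adjusted p = 5.90e-05 and 9.28e-06). Sdhd, the second anchor, changed least, by -0.15 ± 0.06 in Ctrl, where it was not called (adjusted p = 0.0746), and by -0.19 ± 0.06 in KO hearts (adjusted p = 0.0146, 0.0562 in the fit with the highest value among those that left out 1 library, and 0.672 with library totals).

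Complex III, which moves electrons from ubiquinol to cytochrome c, had 5 of 9 genes lower in Ctrl and 8 of 9 in KO hearts. The sum changed by -12.8% and -21.1%. Uqcrc1, a core subunit that faces the matrix, had 1014, 899, 879 and 945 CPM in Ctrl sham and 770.3, 791, 819.6 and 741 CPM in Ctrl TAC hearts. In KO hearts it went from 954, 938, 917 and 940.1 CPM in sham to 694, 695, 664 and 664 CPM after TAC. No TAC library reached the sham libraries of its genotype. The log2 fold changes were -0.26 ± 0.05 and -0.47 ± 0.05 (edgeR adjusted p = 0.00103 and 1.13e-06). The partner core subunit Uqcrc2 changed by -0.24 and -0.33. The Rieske iron-sulfur protein Uqcrfs1 changed by -0.21 and -0.36, and cytochrome c1 (Cyc1), the subunit that hands the electron on, by -0.17 and -0.33. All 3 were called in both genotypes, but in Ctrl hearts Uqcrfs1 lost its call in 4 of the 16 fits that left out 1 library, and Cyc1 in 3. With the number series in the model their adjusted p in Ctrl hearts was 0.117 and 0.115, and with library totals 0.134 and 0.372. Uqcrb, which binds ubiquinone, was also called in both (-0.20 and -0.31). The small subunits Uqcrh, Uqcrq and Uqcr11 were called in KO hearts alone, with -0.16, -0.15 and -0.09 in Ctrl and -0.22, -0.37 and -0.27 in KO hearts. Uqcr10 was not called in either genotype (log2 fold changes -0.11 and -0.12).

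Cytochrome c, the mobile carrier between complexes III and IV, followed the same course. Cycs had 743, 620.1, 652 and 669.5 CPM in Ctrl sham, 604, 565, 622 and 583 CPM in Ctrl TAC, 655, 676, 701 and 655 CPM in KO sham and 537, 555, 503 and 563 CPM in KO TAC hearts. Ctrl TAC 3 overlapped the lowest Ctrl sham library, and the KO groups did not overlap. The log2 fold changes were -0.18 ± 0.06 and -0.32 ± 0.06 (adjusted p = 0.0321 and 0.000256), and the first lost its call in 4 of the 16 fits that left out 1 library, with the number series in the model (adjusted p = 0.102) and with library totals (0.313). Cycs has 3 near-identical copies annotated in the genome, and their counts came to 6.57% of its own, so reads may be divided among them.

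Complex IV held the members that departed from the rest. It is the oxidase that reduces oxygen to water. In Ctrl hearts 8 of its 17 genes fell, 1 rose and 8 were not called, and in KO hearts 10 fell and 7 were not called. The summed change was -13.2% and -22.3%. Cox4i1, the ubiquitous form of the largest nuclear subunit, had 1285, 1245, 1158 and 1361 CPM in Ctrl sham and 1093, 1203, 1118 and 1015 CPM in Ctrl TAC hearts, with Ctrl TAC 2 above the lowest sham library. In KO hearts it had 1313, 1284, 1299 and 1303 CPM in sham and 961, 1040, 945 and 944 CPM after TAC, without overlap. The log2 fold changes were -0.19 ± 0.06 and -0.42 ± 0.06 (adjusted p = 0.0265 and 1.90e-05), and the call in Ctrl hearts was lost in 4 of the 16 fits that left out 1 library, with the number series in the model (adjusted p = 0.160) and with library totals (0.367). Cox5a, which lies on the matrix side of the enzyme, changed by -0.19 in Ctrl, where it was not called (adjusted p = 0.0548), and by -0.27 in KO hearts (adjusted p = 0.00472, and 0.155 with library totals). Its zinc-binding neighbour Cox5b fell in both genotypes (-0.17 and -0.35), as did Cox6c (-0.25 and -0.37) and Cox7b (-0.31 and -0.42). Cox7c was called in KO hearts alone (-0.17 and -0.43), and copies of it took 2.90% of its count.

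Muscle forms of complex IV subunits fell in KO hearts, and Cox7a1 and Cox6a2 also in Ctrl hearts. Cox7a1, the heart and muscle form of subunit 7A, had 476, 416, 408 and 460.2 CPM in Ctrl sham and 365, 299, 382 and 294 CPM in Ctrl TAC hearts. It had 469, 423, 479 and 411 CPM in KO sham and 278, 306, 251 and 294 CPM in KO TAC hearts. Neither pair of groups overlapped, and the log2 fold changes of -0.40 ± 0.09 and -0.66 ± 0.09 were the largest falls of complex IV among genes above 10 CPM (adjusted p = 0.00356 and 1.48e-05). Cox6a2, the muscle form of subunit 6A, had 799, 799, 723 and 812 CPM in Ctrl sham and 649.5, 591, 733 and 617 CPM in Ctrl TAC hearts, where Ctrl TAC 3 overlapped Ctrl sham 3. In KO hearts it went from 813 ± 33.5 to 593 ± 17.2 CPM (SD, n = 4), and the log2 fold changes were -0.28 ± 0.06 and -0.46 ± 0.06 (adjusted p = 0.00345 and 1.45e-05). With the number series in the model the adjusted p of Cox6a2 in Ctrl hearts was 0.0507, past the threshold. Cox8b, the muscle form of subunit 8, changed by -0.18 in Ctrl, where it was not called (adjusted p = 0.0938), and by -0.38 in KO hearts (adjusted p = 0.000517).

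Ubiquitous forms of the same subunits did not all follow. Cox6a1, the form of subunit 6A made in most tissues, had 57.5, 56.3, 58.1 and 57.8 CPM in Ctrl sham and 71.2, 75.1, 63.6 and 63.5 CPM in Ctrl TAC hearts, so that all TAC libraries were higher. It rose by 0.25 ± 0.06 log2 (adjusted p = 0.00576), the only rise among the 48 called in Ctrl hearts, and kept its call in all 16 fits that left out 1 library. In KO hearts it had 62.0, 55.0, 62.9 and 58.7 CPM in sham and 59.3, 66.9, 64.8 and 65.2 CPM after TAC, with overlap, and the log2 fold change of 0.10 ± 0.06 was not called (adjusted p = 0.203), although it was with library totals. Cox8a, the ubiquitous form of subunit 8, had log2 fold changes of 0.11 and 0.09, and Cox7a2l, which joins complexes III and IV, 0.01 and 0.06. Neither was called in either genotype. Cox7a2 fell in both genotypes, with changes of -0.24 (adjusted p = 0.0309) and -0.35 (adjusted p = 0.00114). In Ctrl hearts that call was lost in 4 of the 16 fits that left out 1 library, with the number series in the model (adjusted p = 0.267) and with library totals (0.153). Cox6b1, the ubiquitous form of subunit 6B, had log2 fold changes of -0.07 and -0.11 and was not called. Its testis form Cox6b2 was near 1 CPM, with 1.53, 1.41, 1.42 and 1.19 CPM in Ctrl sham and 0.546, 0.643, 0.699 and 0.919 CPM in Ctrl TAC hearts, and its change of -0.98 ± 0.32 (adjusted p = 0.0352) lost its call in 6 of the 16 fits and with library totals (adjusted p = 0.0516).

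**Figure D2:**
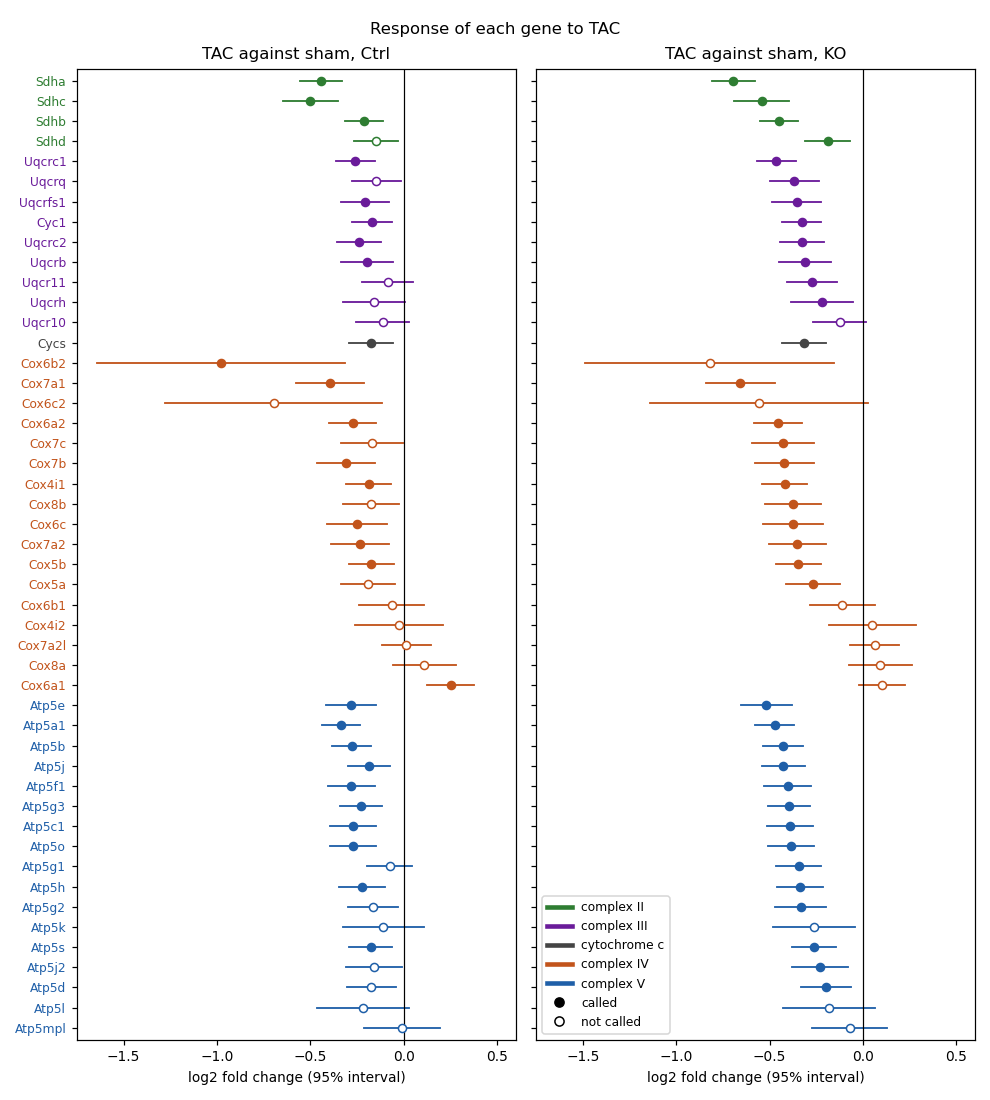
Log2 fold change after TAC (horizontal axes) of each of the 48 genes in Ctrl (left) and KO hearts (right), with 95% intervals from the edgeR fit, coloured by complex and ordered within each by the value in KO hearts. Filled points were called at an adjusted p under 0.05. Complex IV spans the widest range, from Cox6b2 at -0.98 to Cox6a1 at 0.25 in Ctrl hearts, and the genes of complexes II, III and V lie at or below 0 in both panels.

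The balance of forms was also taken as the ratio of counts within a library, which no scaling of libraries can change. The ratio of Cox6a2 to Cox6a1 was 13.9, 14.2, 12.5 and 14.0 in Ctrl sham and 9.13, 7.87, 11.5 and 9.71 in Ctrl TAC hearts, and 13.0, 14.2, 13.6 and 13.7 in KO sham and 9.88, 9.23, 9.11 and 8.87 in KO TAC hearts. Every TAC library was lower than every sham library of its genotype, by 0.53 log2 on average in Ctrl and 0.56 in KO hearts. Cox7a1 relative to Cox7a2 went from 2.09, 2.02, 2.11 and 2.08 to 1.89, 1.93, 1.93 and 1.68 in Ctrl and from 2.101, 2.06, 2.101 and 1.88 to 1.67, 1.62, 1.56 and 1.74 in KO hearts, without overlap in either genotype. Cox8b relative to Cox8a went from 4.14, 4.31, 4.05 and 4.62 to 3.28, 4.14, 3.58 and 3.19 in Ctrl, with overlap, and from 4.29, 4.49, 4.37 and 4.09 to 3.10, 3.22, 3.05 and 3.08 in KO hearts, without overlap. Cox4i2, a form known from lung and from cells that sense oxygen, was rare, at 0.00372 to 0.00466 of Cox4i1 in Ctrl sham, 0.00401 to 0.00506 in Ctrl TAC, 0.00370 to 0.00473 in KO sham and 0.00512 to 0.00649 in KO TAC hearts. Only the KO TAC libraries lay above all libraries of the other groups, and narrowly, with KO TAC 3 at 0.00512 and Ctrl TAC 3 at 0.00506.

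With 4 libraries against 4 the exact two-sided permutation test cannot give a p under 0.0286. It gave that value for Cox6a2/Cox6a1 and Cox7a1/Cox7a2 after TAC in both genotypes, for Cox8b/Cox8a and Cox4i2/Cox4i1 after TAC in KO hearts, and for Cox4i2/Cox4i1 between KO TAC and Ctrl TAC. Over the 24 ratios tested the adjusted p was 0.0979 for each of these, so none passed 0.05. Between KO and Ctrl sham hearts the 6 ratios differed by -0.03 to 0.01 log2, with exact permutation p from 0.657 to 1.00. The ratios of the 3 ATP synthase subunit c genes, which encode the same mature protein, moved less, by 0.15 log2 for Atp5g1/Atp5g3 and 0.06 for Atp5g2/Atp5g3 after TAC in Ctrl hearts (exact permutation p = 0.0571 and 0.0857).

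**Figure D3:**
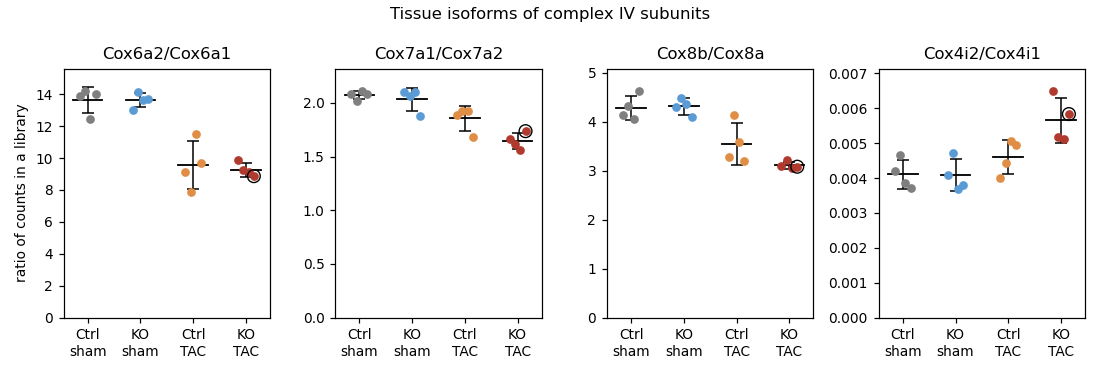
Ratio of the counts of tissue forms of complex IV subunits within each library (vertical axes, from 0), with the mean and SD of each group of 4. The ring marks the library labelled KO TAC 4. Cox6a2/Cox6a1 lies at 12.5 to 14.2 in sham libraries of both genotypes and at 7.87 to 11.5 in TAC libraries.

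Complex V, ATP synthase, had 10 of 17 genes lower in Ctrl and 14 of 17 in KO hearts, and its sum changed by -16.4% and -24.3%. Atp5b, the catalytic beta subunit, had 4899, 4435, 4256 and 4616 CPM in Ctrl sham and 3732, 3809, 3860 and 3603 CPM in Ctrl TAC hearts. In KO hearts it had 4615, 4426, 4413 and 4685 CPM in sham and 3312, 3494, 3310 and 3355 CPM after TAC. Groups did not overlap in either genotype, and the log2 fold changes were -0.28 ± 0.05 and -0.43 ± 0.05 (adjusted p = 0.000611 and 3.23e-06). The alpha subunit Atp5a1 changed by -0.34 ± 0.05 and -0.47 ± 0.05 (adjusted p = 9.27e-05 and 8.61e-07). Of the stalk that turns inside the head, the gamma subunit Atp5c1 had -0.27 and -0.39, called in both genotypes, and the delta subunit Atp5d -0.17 (adjusted p = 0.0594) and -0.20 (adjusted p = 0.0198). Atp5e, the epsilon subunit of the central stalk, changed by -0.28 and -0.52, the latter the largest fall of complex V in KO hearts. Of the peripheral stalk that holds the head still, Atp5f1, Atp5h, Atp5j and Atp5o fell in both genotypes, with log2 fold changes of -0.28, -0.22, -0.19 and -0.27 in Ctrl and -0.40, -0.34, -0.43 and -0.39 in KO hearts. For Atp5j the call in Ctrl hearts was lost in 4 of the 16 fits that left out 1 library, with the number series in the model (adjusted p = 0.0822) and with library totals (0.307). Atp5o shares 47.9% of its exon bases with 3 other annotated gene IDs (a second Atp5o, D430001F17Rik and Gm15976), so its level is uncertain.

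Among the genes for the proton-carrying c ring, Atp5g3 fell in both genotypes and Atp5g1 and Atp5g2 in KO hearts. Atp5g3 had 1014 ± 56.4 and 866 ± 52.6 CPM in Ctrl sham and TAC hearts, and its log2 fold changes were -0.23 and -0.40 (adjusted p = 0.00554 and 1.67e-05). Its call in Ctrl hearts was lost with the number series in the model (adjusted p = 0.0569) and with library totals (0.0684). Atp5g1 had 898, 827, 797 and 929.5 CPM in Ctrl sham and 866, 847, 799.7 and 763 CPM in Ctrl TAC hearts, which overlapped, with a log2 fold change of -0.08 ± 0.06 (adjusted p = 0.392). In KO hearts it went from 911, 888, 931 and 847 CPM to 711, 739, 678 and 688 CPM, a change of -0.34 ± 0.06 (adjusted p = 0.000129). Atp5g2 changed by -0.17 in Ctrl, where it was not called, and by -0.33 in KO hearts (adjusted p = 0.000572). Copies of Atp5g2 elsewhere in the genome took 9.83% of its count and those of Atp5g1 1.05%, so these 2 levels are uncertain to that extent. The small membrane subunits Atp5k, Atp5l and Atp5mpl were not called in either genotype, with log2 fold changes from -0.22 to -0.01 in Ctrl and from -0.26 to -0.07 in KO hearts. Atp5l has 8 near-identical copies, whose counts came to 6.80% of its own. Atp5j2, another membrane subunit, was called in KO hearts alone (-0.16 and -0.23), and Atp5s, a factor of the coupling step present at 21.5 ± 1.04 CPM in Ctrl sham hearts, fell in both genotypes (-0.18 and -0.26).

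Without load the genotypes were not told apart. Between KO sham and Ctrl sham hearts none of the 48 was called, as was none of all genes (0.0%). None of the 48 had an unadjusted p under 0.05 in edgeR, against 479 of all 18275 genes. DESeq2 also called 0 of the 48, and 3 of all 18275 genes. For the 45 genes at or above 10 CPM the log2 fold changes lay between -0.04 and 0.08 and their 95% intervals between -0.20 and 0.30. The summed level was 29730 ± 1815 CPM in control and 30090 ± 317 CPM in KO hearts after sham surgery, a difference of 1.2%. Of the 48, 41 had a log2 fold change above 0 and 7 below, with a median of 0.04. KO sham libraries were closer to each other than Ctrl sham libraries, in which Ctrl sham 1 was the highest, and without Ctrl sham 1 the count of calls remained 0.

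Under load most of these genes had a lower mean in KO than in Ctrl hearts, by less than the effect of TAC itself. By their means 41 of the 48 were lower in KO TAC than in Ctrl TAC, with a median log2 fold change of -0.10, and the summed level was 8.8% lower. In sham hearts, where none was called, 41 of the 48 lay the other way, higher in KO, with a median of 0.04. The sums after TAC overlapped, with KO TAC 2 at 24190 CPM above Ctrl TAC 4 at 24010 CPM. With library totals 34 of the 48 were lower, with a median of -0.06, and 7 genes changed sign, none of them called with TMM scaling. Called were 5, all lower, against 2.68% of all genes called and 1.32% called lower. Sdha had 1074, 1174, 1132 and 1011 CPM in Ctrl TAC and 898, 905, 886 and 914 CPM in KO TAC hearts, a log2 difference of -0.29 ± 0.05 (adjusted p = 0.0141, edgeR). Sdhb had 585, 592, 613 and 552 CPM against 493, 535, 497 and 497 CPM (-0.21 ± 0.05, adjusted p = 0.0296). For both genes every KO TAC library was below every Ctrl TAC library.

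The remaining 3 belonged to complexes III and V. Uqcrc1 had 770.3, 791, 819.6 and 741 CPM in Ctrl TAC and 694, 695, 664 and 664 CPM in KO TAC hearts (-0.20 ± 0.05, adjusted p = 0.0387). Atp5j, a coupling subunit of the peripheral stalk, had 433, 455, 467 and 412 CPM and 365, 409.5, 364 and 381 CPM (-0.22 ± 0.05, adjusted p = 0.0407). Atp5g1 had 866, 847, 799.7 and 763 CPM and 711, 739, 678 and 688 CPM (-0.22 ± 0.06, adjusted p = 0.0485). Groups did not overlap for any of the 3, and the library labelled KO TAC 4 lay within the range of the others for these 3 and for Sdhb, and was the highest for Sdha. Atp5j shares 12.7% of its exon bases with Gabpa, and whether the counting used strand was not given in the sources used here. Gabpa itself was at 44.6 ± 1.75 and 44.7 ± 0.722 CPM (SD, n = 4).

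The calls between KO TAC and Ctrl TAC depended on single libraries, while the size of the differences moved little. Without KO TAC 4, whose Cardinal level goes against its label, 1 of the 48 was called, Sdha (log2 -0.29, adjusted p = 0.0217), and Sdhb had an adjusted p of 0.0573 at -0.20. That fit called 438 of all 18494 genes tested. Without Ctrl TAC 2, without both libraries together, and with a term for the series of animal numbers, 0 were called, with adjusted p-values for Sdha of 0.0541, 0.0670 and 0.102 at log2 differences of -0.25, -0.26 and -0.27. Calls over all genes were also few in these fits, at 63 of 18425, 109 of 18349 and 12 of 18275. DESeq2 called 9. Leaving out Ctrl TAC 3, KO TAC 1 or KO TAC 3 left 1 call, KO sham 1 or KO sham 2 left 2, and KO TAC 2 left 3. Over all genes these fits called 190, 258, 84, 337, 324 and 152, in that order.

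**Figure D4:**
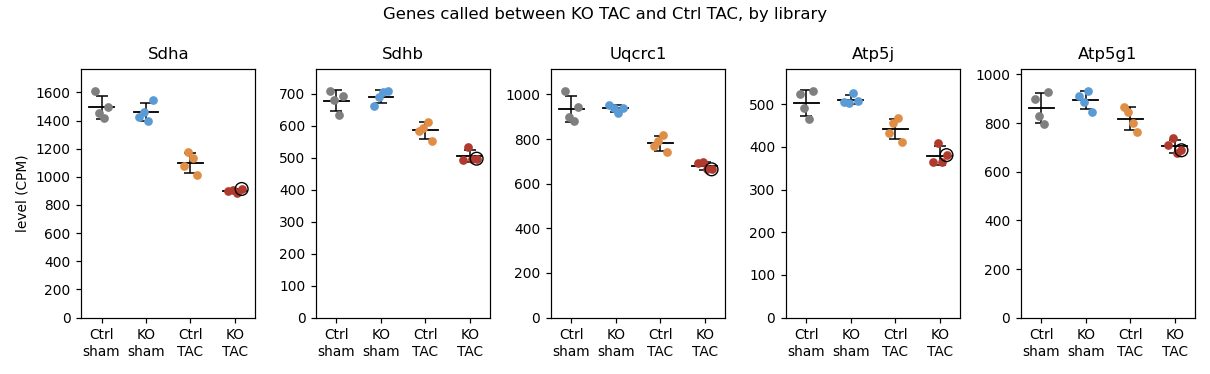
Level in CPM (vertical axes, from 0) of the 5 genes called between KO TAC and Ctrl TAC in all 16 libraries, with the mean and SD of each group of 4. The ring marks the library labelled KO TAC 4. KO TAC lies below Ctrl TAC in each panel, and the sham groups of both genotypes overlap.

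Whether Cardinal changes the response to load is tested by the genotype by surgery interaction. In edgeR it called none of the 48, against 0.0109% of all genes. DESeq2 also called none of the 48, against 132 of all 18275 genes. In edgeR 15 of the 48 had an unadjusted p under 0.05, against 2024 of the 18275. The median interaction was -0.12 log2, and 43 of the 48 had a larger fall or smaller rise in KO hearts. The interaction also takes in the sham levels, which were higher in KO than in Ctrl hearts for 41 of the 48. The lowest adjusted p was that of Sdhb, at -0.24 log2 with a 95% interval of -0.38 to -0.09 (adjusted p = 0.238). For Sdha the interaction was -0.25 (-0.41 to -0.09) and for Atp5g1 -0.27 (-0.44 to -0.10). For Cox6a1, called after TAC in Ctrl hearts alone, it was -0.15 (-0.33 to 0.03), so its response was not shown to differ between genotypes.

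Other mitochondrial genes placed these values in context. The 36 nuclear subunits of complex I, which feeds electrons from NADH, had 16 lower in Ctrl and 33 lower in KO hearts after TAC, with medians of -0.16 and -0.35 log2. Of the 36, 44.4% and 91.7% were called, against 20.0% and 34.3% of all genes. The 13 protein genes of the mitochondrial genome had 5 and 10 lower (38.5% and 76.9% called), with medians of -0.29 and -0.34. Among them mt-Co1, the catalytic core of complex IV, changed by -0.32 and -0.38 (adjusted p = 0.00248 and 0.000323). The libraries were poly(A) selected, and how that acts on mitochondrial transcripts was not tested. The 78 mitochondrial ribosomal proteins, which translate those genes, had 11 lower and 5 higher in Ctrl and 36 lower and 5 higher in KO hearts, with medians of -0.02 and -0.13. That is 20.5% called in Ctrl, near the 20.0% of all genes, and 52.6% in KO hearts, against 34.3%. Of 16 genes for mitochondrial structure and transport, 7 fell and 1 rose in Ctrl, and 10 fell in KO hearts, with medians of -0.09 and -0.26, and with library totals 4 fell and 3 rose in Ctrl, where the median was 0.01, and 6 fell and 3 rose in KO hearts. With library totals the medians of the ribosomal proteins were 0.09 and 0.03, with 17 higher and 3 lower in Ctrl and 15 higher and 8 lower in KO hearts, and those of complex I -0.05 and -0.18, with 3 lower and 1 higher in Ctrl and 21 lower and 1 higher in KO hearts. The mitochondrially encoded genes then had 3 and 7 lower, with medians of -0.19 and -0.18.

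Factors that assemble complexes II to V but are no part of them were taken as a list of 40. In Ctrl hearts 7 rose and 2 fell, which is 22.5% called against 20.0% of all genes, with a median of 0.02 log2. In KO hearts 2 rose and 11 fell, 32.5% against 34.3% of all genes, with a median of -0.13. Cox19, a copper-handling factor of complex IV, had 27.0, 28.6, 25.8 and 29.6 CPM in Ctrl sham and 52.7, 47.5, 46.3 and 49.3 CPM in Ctrl TAC hearts. It had 31.6, 30.1, 33.8 and 29.6 CPM in KO sham and 51.3, 49.4, 50.1 and 52.0 CPM in KO TAC hearts, and its rise of 0.82 ± 0.06 and 0.70 ± 0.06 (adjusted p = 4.72e-08 and 5.11e-08) was the largest among the 40. All TAC libraries were above all sham libraries. Cox11, which delivers copper, rose in Ctrl hearts (0.35, adjusted p = 0.00633) and had -0.13 in KO hearts, not called. Sdhaf4 and Sdhaf2, which help mature the flavoprotein Sdha, rose in Ctrl hearts by 0.24 and 0.14 (adjusted p = 0.0129 and 0.0431), where Sdha itself fell. Uqcc3, a complex III factor, rose in both genotypes, by 0.35 and 0.35. The 4 factors of complex V (Atpaf1, Atpaf2, Fmc1 and Tmem70) were not called in Ctrl and fell in KO hearts, with log2 fold changes from -0.50 to -0.23, but 1 of the 4 was called with library totals and none for the interaction. With library totals 13 of the 40 rose and 0 fell in Ctrl, and 10 rose and 2 fell in KO hearts, so the direction of the list in KO hearts depended on the scaling.

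**Figure D5:**
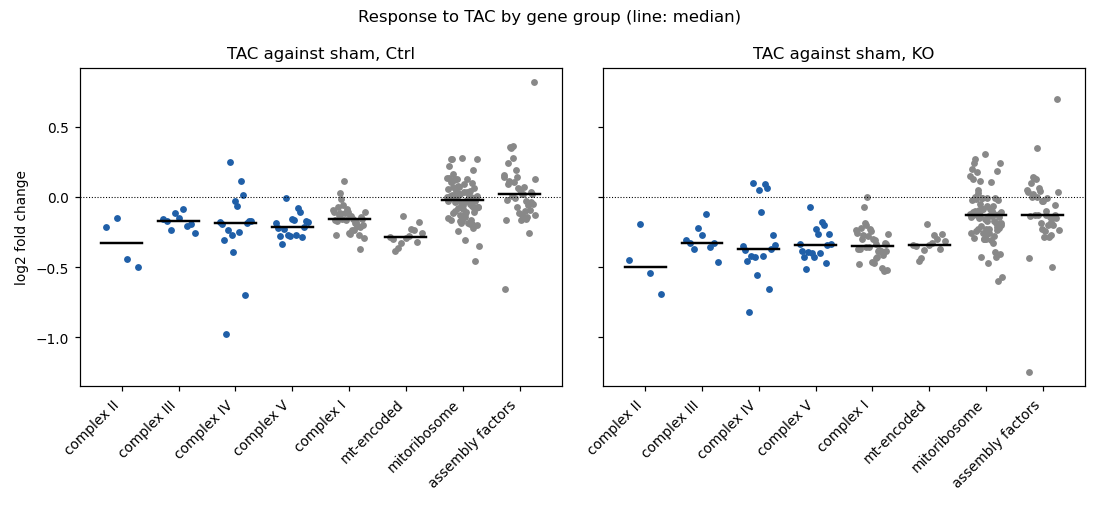
Log2 fold change after TAC (vertical axis) of each gene, grouped by complex or function, in Ctrl (left) and KO hearts (right). The black line is the median of a group, and the genes of complexes II to V are in blue. In Ctrl hearts medians lie between -0.33 and -0.16 for complexes I to V and at -0.02 for mitochondrial ribosomal proteins and 0.02 for assembly factors.

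Of 17 genes known to drive transcription of respiratory genes, 2 fell in Ctrl hearts, 11.8% called against 20.0% of all genes, and 9 fell and 1 rose in KO hearts, 58.8% against 34.3%. Gabpa, the ETS-family subunit of GABP, fell in both genotypes, with changes of -0.25 ± 0.04 and -0.21 ± 0.04 (adjusted p = 0.000358 and 0.000925). It shares exon bases with the far higher Atp5j, which also fell, so its level is uncertain where the counting did not use strand. Esrrg, an estrogen-related receptor, changed by -0.25 in Ctrl (adjusted p = 0.0478) and -0.26 in KO hearts (adjusted p = 0.0242). Its relative Esrra fell in KO hearts, with a change of -0.34 ± 0.06 (adjusted p = 9.12e-05), and had -0.13 in Ctrl hearts, not called. Ppargc1a, the coactivator PGC-1 alpha, had -0.20 in Ctrl, not called, and -0.62 ± 0.22 in KO hearts (adjusted p = 0.0464). Nrf1 was not called (-0.20 and -0.17). With library totals 1 fell and 1 rose in Ctrl, and 1 fell and 2 rose in KO hearts. None of the 17 was called between KO TAC and Ctrl TAC by edgeR. There 4 of the 17 had an unadjusted p under 0.05, against 3380 of all 18275 genes.

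Markers of some cell types also changed after TAC. The 10 cardiomyocyte genes summed to 57750 to 66020 CPM in Ctrl sham, 50890 to 55220 CPM in Ctrl TAC and 44210 to 46120 CPM in KO TAC hearts, a change of -12.1% after TAC in Ctrl and -24.9% in KO hearts. Of them 5 fell and 2 rose in Ctrl, and 6 fell in KO hearts, with medians of -0.19 and -0.39 log2. With library totals 2 fell and 2 rose in Ctrl, and 6 fell and 2 rose in KO hearts, with medians of -0.08 and -0.23. Their mean sum was 53400 CPM in Ctrl TAC and 45370 CPM in KO TAC hearts. The 9 fibroblast genes summed to 604 to 740 CPM in Ctrl sham, 1150 to 1625 CPM in Ctrl TAC and 1859 to 2025 CPM in KO TAC hearts, with 5 higher in Ctrl and 8 higher in KO hearts. The 10 macrophage genes summed to 199 to 267, 279 to 343 and 303 to 421 CPM in the same groups, with 7 and 10 higher. With library totals 8 and 9 fibroblast genes and 8 and 10 macrophage genes were higher. None of the genes of these 3 lists was at 0 in any library. The 8 endothelial genes had 0 called by edgeR in either genotype, with 1 in each at an unadjusted p under 0.05 (sums of 742 to 918 CPM) and 1 and 3 higher with library totals, and the 7 mural cell genes had 3 higher in each (651 to 758 CPM). Of the mural cell genes 42.9% were called in each genotype. The part of these cell types in the results was not tested. Skeletal muscle genes, which would reveal tissue from the chest wall, summed to 5.23 CPM in Ctrl TAC 2 and to 0.723 to 1.79 CPM in the other 15 libraries.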

How the data were processed

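Apex RNA of 16 hearts was sequenced as poly(A)-selected paired reads of 150 bases. The deposited table holds raw counts per Ensembl gene made by the authors. The submitters' processing notes name cutadapt 2.3, FastQC, HISAT2 2.1.0, GRCm38 and edgeR 3.26.1, and whether counting used strand was not given in the sources used here. Symbols and exon lengths came from GENCODE M21, which named 55227 of 55487 IDs. Groups came from the labels. Each library is 1 animal.

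From the counts, edgeR 4.0.16 (R 4.3.3) with its expression filter, TMM scaling and robust quasi-likelihood dispersions was fitted to 18275 genes and 16 libraries with 4 group means and 5 contrasts. P-values were adjusted over all 18275 genes by Benjamini-Hochberg. The code was tested on simulated data. Errors of fold changes are standard errors. Count ratios within a library were compared by exact permutation of 70 relabellings, with 0.5 added to each count before the logarithm. Promoter sequences came from RefSeq on GRCm38.p6. Near-identical copies had 95% identity over at least 150 bases.

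The 48 genes, the lists and the named genes were chosen with earlier results of these data known. Named were the core subunits, tissue forms, subunit c genes, the 3 largest called changes in each direction of a contrast and all genes called between KO TAC and Ctrl TAC. Other subunits are given to account for the group, and assembly factors and regulators were picked for naming after their values were seen. DESeq2 1.42.0, other scalings, filters and models, and the fit without each library were run as alternatives.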

Additional observations from a re-analysis of the deposited data

Results flagged for a closer look

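Within the groups of 4, 132 groups of values were examined for a library far from the other 3 by Dixon's criterion. The values were those of the named genes and the summed levels of the 48 and of each complex, which are not independent. Chance meets the criterion in about 1 group in 20, and 6 (4.5%) met it. Sdhc had 427.1 CPM in Ctrl sham 1 against 364.4 to 374.8 CPM in the other Ctrl sham libraries, and Sdhd had 347.1 CPM there against 294.8 to 302.2 CPM. Sdhd had 306.2 CPM in Ctrl TAC 3 against 270.7 to 274.5 CPM in the other Ctrl TAC libraries. Cox6a2 had 722.9 CPM in Ctrl sham 3 against 798.8 to 812.1 CPM. Sdhb had 535.0 CPM in KO TAC 2 against 492.6 to 497.2 CPM, and Atp5j had 525.8 CPM in KO sham 3 against 503.3 to 507.0 CPM. Ctrl sham 1 also had the highest summed level of the 48 genes, at 32010 CPM.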

How the results depend on the processing

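After TAC in Ctrl hearts 28 of the 48 genes were called by edgeR, and 14 with library totals, 13 with a term for the series of animal numbers, 18 in a fit to the 8 libraries compared and 16 at an adjusted p under 0.01. Over all genes these called 3652, 4335, 2479, 2836 and 2076, in that order. Leaving out 1 library gave 17 (without Ctrl sham 1) to 35 (without Ctrl TAC 3). After TAC in KO hearts 37 were called, and 32 to 39 under every alternative. Between KO TAC and Ctrl TAC 5 were called, and 1 with library totals, 2 with no filter on low counts, 9 with DESeq2, and 0 with the series term, without Ctrl TAC 2 and KO TAC 4 together, in the fit to 8 libraries and at 0.01. Over all genes these called 489, 385, 285, 1180, 12, 109, 154 and 19, in that order. Leaving out 1 library there gave 0 (without Ctrl TAC 2) to 6. The counts of 0 between sham groups and for the interaction stayed 0 under every alternative, DESeq2 included. Causes were not tested, apart from the stricter threshold and the smaller fits, which by construction call or use less. No named subunit gene called in a contrast changed direction under an alternative. With library totals the medians of assembly factors in KO hearts (-0.13 to 0.04), of mitochondrial ribosomal proteins (-0.02 to 0.09 in Ctrl, -0.13 to 0.03 in KO), of structure genes in Ctrl hearts (-0.09 to 0.01) and of regulators in Ctrl hearts (-0.10 to 0.00) did. All 234 alternative values of the isoform ratios stayed within 1 SD of the reported ones. Only with library totals did the medians of the complexes move by more than that spread, among them to -0.22 (II), -0.06 (III) and -0.11 (V) in Ctrl hearts. With the median of all 48 included, 9 alternative medians moved beyond it. In KO hearts the median of the 48 went from -0.35 to -0.19 with library totals. No paired analysis was possible because the libraries carry no replicate numbers that link animals across groups. Genes near 1 CPM, Cox6b2 and Cox6c2, and those sharing reads with copies or overlapping genes are the least certain.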
